A study of Rattus norvegicus with 138 samples.

Results

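Transcripts of the nucleus tractus solitarii, or nucleus of the solitary tract (NTS), were compared between female Wistar-Kyoto (WKY) rats of 24 and 12 wk of age. The comparison took every NTS library that the labels place in these groups, which are 3 libraries at 24 wk and 3 at 12 wk, or 6 of the 138 libraries of the series. The rats were WKY/NHsd, the normotensive control strain of the spontaneously hypertensive rat (SHR), and the labels name no treatment. The series covers the NTS, the caudal ventrolateral medulla (CVLM) and the rostral ventrolateral medulla (RVLM) of female WKY rats and SHRs at 5 ages, the others being 8, 10 and 16 wk. The question here is what changes with age in the NTS of a rat that does not become hypertensive. As points of reference, the same ages were compared in the NTS of SHRs (6 libraries at each age) and in the CVLM and RVLM of WKY rats (3 libraries at each age).

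The NTS lies in the dorsal medulla and is where baroreceptor, chemoreceptor and visceral vagal afferents first synapse. Its neurons are mostly glutamatergic or GABAergic, and smaller groups make noradrenaline, proglucagon or pro-opiomelanocortin peptides. It borders the fourth ventricle, which is lined by ependymal cells with motile cilia and holds choroid plexus, the epithelium that secretes cerebrospinal fluid. Tissue was taken as punches of frozen sections, so that each library holds all cell types of the punch, and fewer cells of a type cannot be told apart from less RNA per cell.

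Total counts assigned to genes ran from 6799589 to 11107689 in the 6 libraries, and 13793 of 32883 genes passed the filter on low expression. The labelled tissue was checked on its defining genes. Th, tyrosine hydroxylase, had 881 to 1907 counts per library, Dbh had 420 to 907 and the vesicular glutamate transporter gene Slc17a6 had 2023 to 3381. The dorsal medullary transcription factor genes Tlx3 and Lmx1b were low, with at most 11 counts, and were not tested. The cerebellar granule cell genes Gabra6 and Cbln3 had at most 3 counts in any of the 6 libraries.

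The 6 libraries did not separate by age. In a principal component analysis of log2(CPM + 1) values, where CPM is each count scaled to the library size, the first component held 56.5% of the variance. Its scores were -39.6, 25.7 and -41.5 for 12 wk replicates 1 to 3 and 37.2, -18.1 and 36.1 for 24 wk replicates 1 to 3. Replicate 2 of 12 wk therefore lay with replicates 1 and 3 of 24 wk, and the other 3 libraries lay together. Jund, a subunit of the AP-1 transcription factor, was at the far end of this component, with 78.5, 3.83 and 123 CPM at 12 wk and 2.80, 12.5 and 1.48 CPM at 24 wk.

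**Figure D1:**
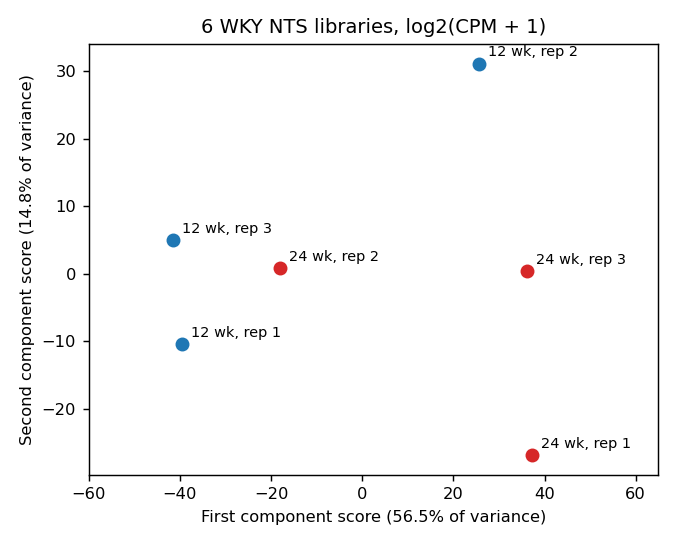
Scores of the 6 WKY NTS libraries on the first (x axis, 56.5% of variance) and second (y axis, 14.8% of variance) principal component of log2(CPM + 1), with 12 wk in blue and 24 wk in red. Along the x axis 12 wk replicate 2, at 25.7, lies with 24 wk replicates 1 and 3, and the ages do not separate.

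A second feature set 12 wk replicates 2 and 3 apart. Ttr, which encodes transthyretin and is the most abundant choroid plexus transcript, had 3, 52201 and 8071 counts at 12 wk and 20, 7 and 11 counts at 24 wk. The choroid plexus, cilium, leptomeninges and interferon lists are described with and without these libraries.

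By edgeR's quasi-likelihood test with Benjamini-Hochberg adjustment, no gene reached an adjusted p under 0.05, that is 0% of the 13793 genes, and the lowest adjusted p was 0.209. At an unadjusted p under 0.05 there were 1104 genes (8.00%), of which 336 (2.44%) had higher and 768 (5.57%) had lower values at 24 wk. DESeq2 called 10 genes, 2 with higher and 8 with lower values. The groups did not overlap for 741 genes (5.37%) with higher and 567 genes (4.11%) with lower values at 24 wk. The median log2 fold change over all genes was -0.01. The median standard error of a log2 fold change was 0.245 with 3 rats per age. Values below therefore describe genes that did not pass the adjusted test. They are given in CPM in the order of replicates 1 to 3, and a fold change is 24 relative to 12 wk.

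Among genes with a mean of at least 50 counts, 10 with lower and 9 with higher values at 24 wk, taken by the lowest p, are shown in the plot of leading genes. Tgm2, tissue transglutaminase, which cross-links matrix proteins, had 9.10, 18.9 and 12.9 CPM at 12 wk and 6.31, 6.30 and 6.34 CPM at 24 wk. All 3 libraries of 24 wk lay below those of 12 wk. The log2 fold change was -1.11 ± 0.26 (SE, n = 3 per age, edgeR quasi-likelihood test with Benjamini-Hochberg adjustment, adjusted p = 0.209). Asic4, a member of the acid-sensing ion channel family, had 10.9, 13.3 and 14.4 CPM at 12 wk and 5.61, 5.60 and 6.55 CPM at 24 wk, a log2 fold change of -1.12 ± 0.28. In WKY rats of 16 wk it ranged from 10.8 to 15.5 CPM. Prelp, a leucine-rich proteoglycan of connective tissue, had 18.9, 38.4 and 15.6 CPM at 12 wk against 2.50, 11.2 and 6.02 CPM at 24 wk, a log2 fold change of -1.91 ± 0.51. Tubb6, a beta-tubulin, had 17.2, 19.2 and 15.8 CPM at 12 wk against 4.30, 10.1 and 6.34 CPM at 24 wk, a log2 fold change of -1.34 ± 0.35. The groups of these 4 genes did not overlap. In WKY rats of 8, 10 and 16 wk, Tgm2 was at least 7.53 CPM. Prelp ranged from 2.68 to 13.9 CPM at 8 wk, 6.28 to 24.4 CPM at 10 wk and 4.57 to 7.58 CPM at 16 wk. Tubb6 ranged from 5.91 to 15.3 CPM, 11.7 to 21 CPM and 5.87 to 13.2 CPM. At 8 and 16 wk both Prelp and Tubb6 thus overlapped the values of 24 wk and lay below those of 12 wk.

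Of the other genes on the lower side, Vps37b, of the ESCRT-I complex that sorts membrane cargo, had a log2 fold change of -0.88 ± 0.22, and Ring1, of Polycomb repressive complex 1, one of -0.995 ± 0.27. Pbxip1, whose protein binds PBX homeodomain proteins, had -0.74 ± 0.20, and its groups overlapped. Calml4, a calmodulin-like protein, had 3.87, 15.3 and 5.57 CPM at 12 wk and 1.10, 1.12 and 1.48 CPM at 24 wk. Its values were highest in the 2 libraries of 12 wk that held choroid plexus transcripts, and the log2 fold change was -2.73 ± 0.73 with and -1.64 without them. The remaining genes of this group, Ttr and the potassium channel gene Kcnj13, belong to choroid plexus. Without 24 wk replicate 2, the only library of 24 wk on the other side of the first component, Vps37b, Tubb6 and Prelp each had an adjusted p of 0.0472 in edgeR's quasi-likelihood test. In that fit 39 genes were called, all lower, and 11.5% of all genes were lower at an unadjusted p under 0.05.

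On the higher side, Slc2a5, the fructose transporter GLUT5 that marks microglia in brain, had 22.6, 21.3 and 25.9 CPM at 12 wk and 37.4, 35.1 and 39.6 CPM at 24 wk. The log2 fold change was 0.69 ± 0.17 (SE, n = 3 per age, edgeR quasi-likelihood test with Benjamini-Hochberg adjustment, adjusted p = 0.221). All libraries of 24 wk lay above those of 12 wk, and they also lay above the WKY libraries of 8, 10 and 16 wk, of which the highest had 29.8 CPM. Over the list of 15 microglial genes the median log2 fold change was 0.13, and none of them had an unadjusted p under 0.05. Anln, whose protein anillin organizes septin filaments and is found in myelin, had 21.9, 24.2 and 24.5 CPM at 12 wk and 45.4, 34.5 and 50.7 CPM at 24 wk, a log2 fold change of 0.89 ± 0.24. At 8, 10 and 16 wk it ranged from 27.0 to 42.3 CPM, so that the 12 wk libraries were the lowest of the WKY NTS.

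Oprk1, the kappa opioid receptor, had 6.25, 11.0 and 11.8 CPM at 12 wk and 16.1, 15.4 and 20.7 CPM at 24 wk, a log2 fold change of 0.84 ± 0.23. Kif5b, the heavy chain of conventional kinesin, had 248, 264 and 224 CPM at 12 wk and 321, 326 and 355 CPM at 24 wk, a log2 fold change of 0.44 ± 0.12. The groups of both genes were apart. At 8, 10 and 16 wk, WKY libraries ranged from 10.3 to 20 CPM for Oprk1 and from 247 to 325 CPM for Kif5b. These ranges overlapped the values of both 12 and 24 wk. Acer2, an alkaline ceramidase, had a log2 fold change of 0.99 ± 0.28 and Fancc, of the Fanconi anemia DNA repair pathway, one of 0.85 ± 0.25. Rbm25l1 had 0.57 ± 0.16, and the plakophilin family gene Pkp4 had 0.67 ± 0.20 with groups that overlapped.

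Sgk1, a glucocorticoid-induced kinase that regulates sodium channels and transporters, had 79.6, 68.0 and 63.6 CPM at 12 wk and 227, 137 and 315 CPM at 24 wk. Its log2 fold change of 1.69 ± 0.50 was the largest of the 9 genes with higher values. It ranged from 60.3 to 119 CPM at 8 and 10 wk and had 262, 204 and 70.0 CPM at 16 wk, so that 1 library of 16 wk was at the level of 12 wk. In the NTS of SHRs the mean of Sgk1 was 108 CPM at 12 wk and 195 CPM at 24 wk. In the other regions of the WKY rats Sgk1 was also higher in every library of 24 wk than in any of 12 wk. It had 111, 98.7 and 90 CPM at 12 wk against 265, 226 and 398 CPM at 24 wk in the CVLM, and 87.8, 83.1 and 74.2 CPM against 195, 208 and 402 CPM in the RVLM. The difference between the NTS and CVLM log2 fold changes was 0.11 ± 0.19. Samples of the regions came from the same rats, so these values do not replicate those of the NTS.

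**Figure D2:**
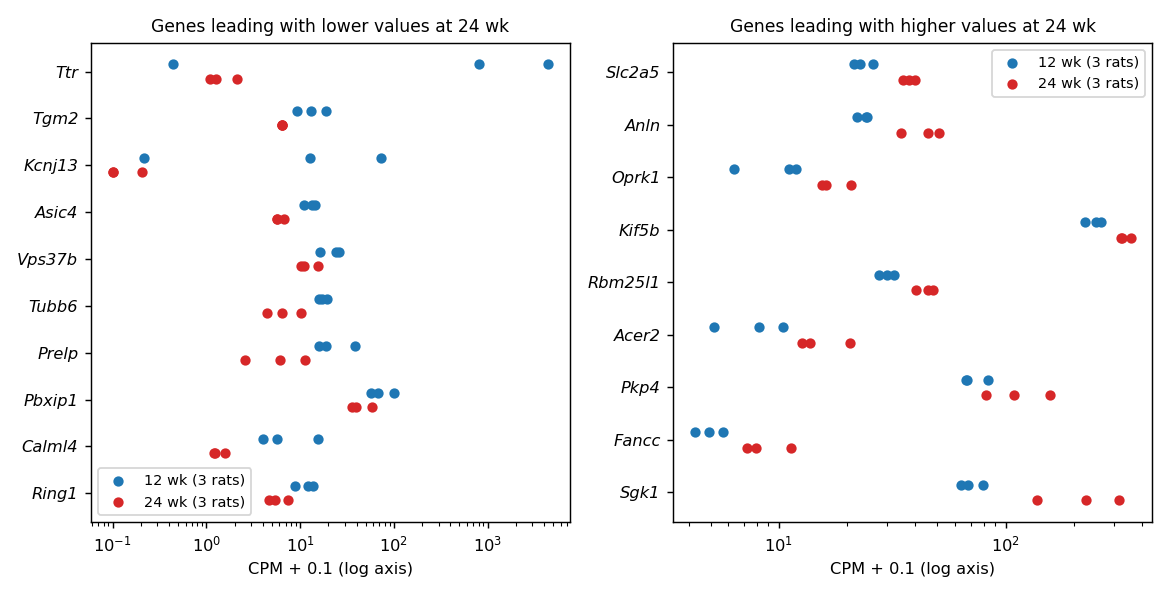
CPM + 0.1 on a log axis (x) of the 10 genes with lower and 9 with higher values at 24 wk, taken by the lowest p at a mean of at least 50 counts (y), each point a rat, 12 wk in blue and 24 wk in red. Tgm2 sits at 6.30 to 6.34 CPM in the 3 rats of 24 wk, and Ttr and Kcnj13 spread most at 12 wk.

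Of 18 tested genes of the glucocorticoid response list, 11 had higher values at 24 wk, with a median log2 fold change of 0.21. At an unadjusted p under 0.05, 4 were higher, against 2.44% of all genes. Beside Sgk1 the 4 were Pdk4, which inhibits pyruvate oxidation, Nfkbia, the NF-kappa B inhibitor, and the clock gene Per1. Without 12 wk replicate 1 there was 1 such gene, and without 12 wk replicate 3 also 1. The other 7 genes had lower values, none at this p, and Fkbp5 and Klf15 had the lowest p of them. Pdk4 had 3.98, 5.78 and 3.48 CPM at 12 wk and 5.80, 10.4 and 8.34 CPM at 24 wk. Nfkbia had 36.2, 36.0 and 36.1 CPM at 12 wk and 45.6, 55.3 and 52.3 CPM at 24 wk, a log2 fold change of 0.50 ± 0.23. The median of the list was 0.28 in the CVLM and 0.20 in the RVLM of the same rats. The time of day at death was not analysed here.

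The motile cilium genes were the largest group with lower values. Motile cilia are built on an axoneme of microtubule doublets, with dynein arms that make them beat, radial spokes and a central pair. Of a list of 75 ependymal and motile cilium genes 57 were tested, and 55 of them had lower values at 24 wk, with a median log2 fold change of -0.93. At an unadjusted p under 0.05, 25 genes were lower and 0 higher, against 5.57% and 2.44% of all genes. In 23 genes the groups did not overlap with 24 wk lower, against 4.11% of all genes. None passed the adjusted test. With no filter on low counts, 62 of 68 genes had lower values and the median was -0.89. The summed level of the tested genes was 1092, 1281 and 863 CPM at 12 wk and 710, 795 and 862 CPM at 24 wk. The lowest library of 12 wk and the highest of 24 wk lay within 1 CPM of each other. Tppp3 alone made up a large part of each sum, so the sums reflect this gene more than any other. It had 597, 524 and 454 CPM at 12 wk and 483, 463 and 488 CPM at 24 wk, a log2 fold change of -0.13 ± 0.24. A sum without Tppp3 was not taken.

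Promoters of 4 dynein, calcium-binding or central pair genes of this list are shown because they hold the paired motif that RFX transcription factors of ciliated cells bind, in capitals. They come from RefSeq (GRCr8), 5′ to 3′ on the gene's strand, and each ends at or before the base upstream of the annotated start. Dynlrb2 lies at chr19:61429020-61429079 (+), Dnah9 at chr10:51364040-51364112 (-), Efhb at chr9:6678268-6678330 (-) and Hydin at chr19:55146422-55146465 (+).
Dynlrb2: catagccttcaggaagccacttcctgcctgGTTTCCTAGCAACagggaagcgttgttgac
Dnah9: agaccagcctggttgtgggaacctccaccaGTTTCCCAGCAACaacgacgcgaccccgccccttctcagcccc
Efhb: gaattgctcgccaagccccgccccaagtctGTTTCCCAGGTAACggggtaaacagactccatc
Hydin: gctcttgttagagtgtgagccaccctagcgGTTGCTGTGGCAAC
The motif searched was GTTNCC followed by GNAAC after 1 to 3 bases, on both strands, in the 250 bases before the start. It was in 8 of 42 tested genes of the list with a RefSeq promoter (19%) and in 374 of 27457 promoters overall (1.36%). A match describes the sequence and not a bound site.

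Dynlrb2, a dynein light chain, had 35.7, 27.0 and 15.4 CPM at 12 wk and 3.20, 7.84 and 8.55 CPM at 24 wk, a log2 fold change of -2.0 ± 0.66. Dnah9, an outer arm dynein heavy chain, had 8.19, 11.0 and 5.97 CPM at 12 wk and 3.60, 5.74 and 3.70 CPM at 24 wk, a log2 fold change of -0.96 ± 0.33. Both genes were lower in all libraries of 24 wk. Efhb, an EF-hand protein of the axoneme, had 2.28, 6.12 and 3.48 CPM at 12 wk and 0.901, 1.40 and 2.32 CPM at 24 wk, with groups that overlapped slightly. Hydin, a central pair protein, had 6.37, 15.1 and 5.27 CPM at 12 wk and 4.30, 6.86 and 6.12 CPM at 24 wk, and only replicate 2 of 12 wk stood above the others. Its log2 fold change was -0.64 ± 0.38, and 0.0145 without that library.

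Tekt1, a tektin that stabilizes doublet microtubules, had 13.1, 29.3 and 13.6 CPM at 12 wk and 7.71, 12.2 and 10.9 CPM at 24 wk, a log2 fold change of -0.87 ± 0.28. Wdr63, a subunit of inner arm dynein, had 7.39, 16.9 and 8.05 CPM at 12 wk and 2.50, 4.06 and 5.49 CPM at 24 wk, a log2 fold change of -1.43 ± 0.46. Rsph9, a radial spoke protein, had 52.5, 65.5 and 59.5 CPM at 12 wk and 36.1, 42.3 and 41.8 CPM at 24 wk, a log2 fold change of -0.56 ± 0.25. In these 3 genes every library of 12 wk was above every library of 24 wk. Replicate 2 was the highest of 12 wk in each of them. Without this library, which also had the most Ttr counts, 48 of the 57 genes were lower with a median of -0.47, and 3 instead of 25 were lower at an unadjusted p under 0.05. In that fit 9.48% of all genes were, a larger share than in the list. Without 24 wk replicate 1 there were 8 such genes, against 2.07% of all genes, and without 24 wk replicate 2 there were 15, against 11.5%. With 12 wk replicates 2 and 3 both left out, 49 genes were lower with a median of -0.57, 6 of them at an unadjusted p under 0.05 against 6.39% of all genes. With 2 surrogate variables in the fit, 12 genes were lower at this p, against 5.95%.

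Across the ages of WKY rats, the 12 wk group stood above the others. Of the 57 genes 52 (91.2%) had their highest mean at 12 wk, against 2104 of all 13793 tested genes (15.3%), and 4 had their lowest mean at 24 wk. The summed level had a median of 656 CPM at 8 wk, 667 CPM at 10 wk and 765 CPM at 16 wk. By this sum, the 24 wk libraries were within the range of 8, 10 and 16 wk or just above it. Tppp3 alone had means of 362, 284 and 492 CPM at 8, 10 and 16 wk. The list of 27 tested genes for primary cilia and ciliary transport, which most cell types use, had a median log2 fold change of -0.01.

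**Figure D3:**
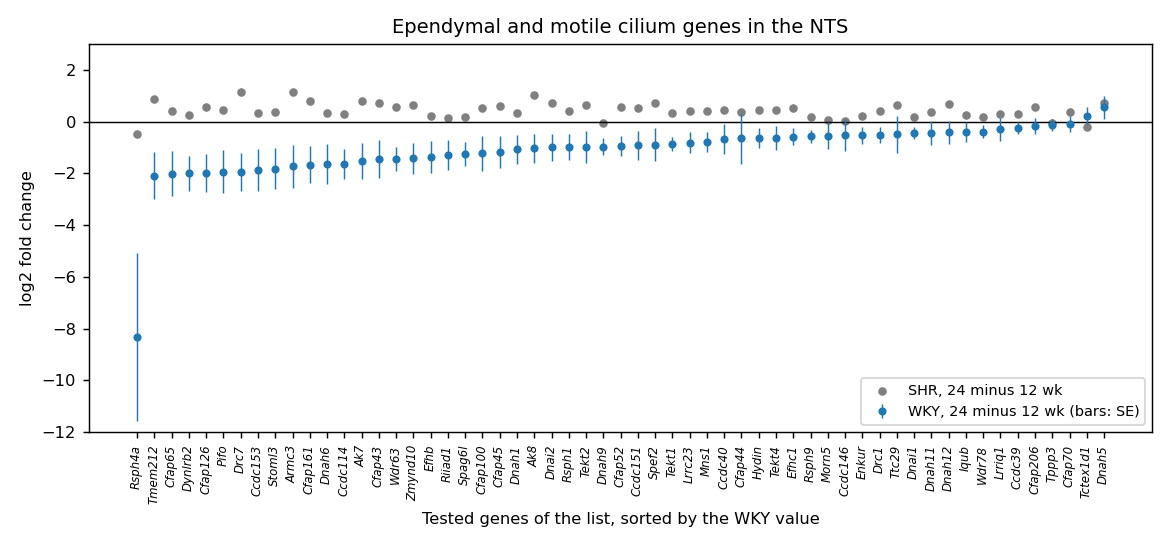
Log2 fold change (y axis, 24 minus 12 wk) of the 57 tested ependymal and motile cilium genes in the NTS (x axis, sorted), WKY rats in blue with SE bars and SHRs in grey. In WKY rats 55 of the 57 points lie below 0, and in SHRs 4 do.

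In the NTS of SHRs, 4 of the same 57 genes had lower values at 24 wk, and the median log2 fold change was 0.40. The summed level ranged from 424 to 993 CPM (median 631) at 12 wk and from 624 to 806 CPM (median 701) at 24 wk in 6 rats each. Tppp3 alone ranged from 273 to 752 CPM at 12 wk and from 382 to 490 CPM at 24 wk. The difference between the strains was tested as an interaction in the same fit. No gene passed it with an adjusted p under 0.05 (0% of all tested genes), the lowest adjusted p was 0.267 and 682 genes (4.94%) had an unadjusted p under 0.05, of which 457 (3.31%) were lower in WKY rats. DESeq2 called 6 genes. Of the cilium genes 56 had a lower value in WKY rats, with a median difference of -1.42, and 35 had an unadjusted p under 0.05. Without 12 wk replicate 2 there were 11, against 3.31% of all genes in that fit, and the median was -0.90. Without 12 wk replicates 2 and 3 there were 9, against 2.97%, with a median of -1.11, and with 2 surrogate variables there were 18, against 4.85%. Tekt1 differed by -1.20 ± 0.34 and Wdr63 by -2.0 ± 0.57 (SE, WKY minus SHR log2 fold change).

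In the CVLM and RVLM of the same rats the motile cilium genes did not move in 1 direction. Of 27 tested in the CVLM 12 had lower values at 24 wk (median 0.06), and of 27 in the RVLM 15 had (median -0.04). Of the 23 genes tested in all regions, 21 had lower NTS values at 24 wk, with a median of -0.51 in the NTS. Over these 23 genes, the NTS log2 fold change was below that of the CVLM in 19 and below that of the RVLM in 20. At an unadjusted p under 0.05 it was below in 5 each, against 1.47% of all genes for the CVLM and 1.34% for the RVLM. Without the rat of 12 wk replicate 2 it was below in 0 for the CVLM, against 1.62% of all genes, and in 2 for the RVLM, against 1.43%. The median differences went from -0.59 to -0.51 and from -0.47 to -0.09. Without the rats of 12 wk replicates 2 and 3, which leaves 1 rat at 12 wk, the median differences were -0.51 and -0.15. None of these differences passed the adjusted test. Over all genes, none passed with an adjusted p under 0.05 in edgeR (0%), with 457 genes (3.48%) at an unadjusted p under 0.05 for the CVLM and 367 (2.80%) for the RVLM. DESeq2 called 1 gene for the CVLM and 2 for the RVLM.

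The choroid plexus list had the median farthest from 0 of all lists. All 15 tested genes had lower values at 24 wk with a median log2 fold change of -3.63. At an unadjusted p under 0.05 there were 12, against 5.57% of all genes. The filter takes a gene's largest value in the region, so a member could pass through the 12 wk libraries where it was high. For such a member a lower value at 24 wk is close to given. With no filter on low counts, 19 of 19 genes had lower values and the median was -3.63. In 5 of the 15 genes the groups did not overlap, against 4.11% of all genes with lower values. Kcnj13 was among these 5 only after scaling to library size, with 1 count in both 12 wk replicate 1 and 24 wk replicate 3. Tmem72 and Cldn2 were also apart by few counts. They had 3 and 2 counts in 12 wk replicate 1, against at most 2 and 0 counts at 24 wk. The median was -3.58 with the 2 genes at 0 in every library of 24 wk set to a floor of 3 counts per library. Their summed level was 184, 5344 and 1073 CPM at 12 wk and 241, 205 and 226 CPM at 24 wk. The sum of replicate 1 of 12 wk was below those of 24 wk, but Enpp2 alone made up most of each of these sums. Enpp2 had 169.6 CPM in replicate 1 of 12 wk and 231.5, 193 and 211.4 CPM at 24 wk. The high sums at 12 wk came from the other 2 libraries.

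Kcnj13, an inwardly rectifying potassium channel of the choroid plexus, had 1, 859 and 128 counts at 12 wk and 0, 0 and 1 counts at 24 wk. Folr1, a folate receptor, had 61, 431 and 90 counts at 12 wk and 11, 6 and 21 counts at 24 wk. Cldn2, a tight junction claudin, had 2, 202 and 19 counts at 12 wk and 0 in each library of 24 wk. Folr1 was thus higher in every library of 12 wk, whereas Kcnj13 and Cldn2 were close to 0 in replicate 1. Without 12 wk replicate 2 the median of the list was -2.14 with 12 genes lower, and without replicates 2 and 3 it was -0.01. Enpp2, which encodes autotaxin, had a log2 fold change of -0.63 ± 0.29 with all libraries and of 0.19 without replicate 2.

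**Figure D4:**
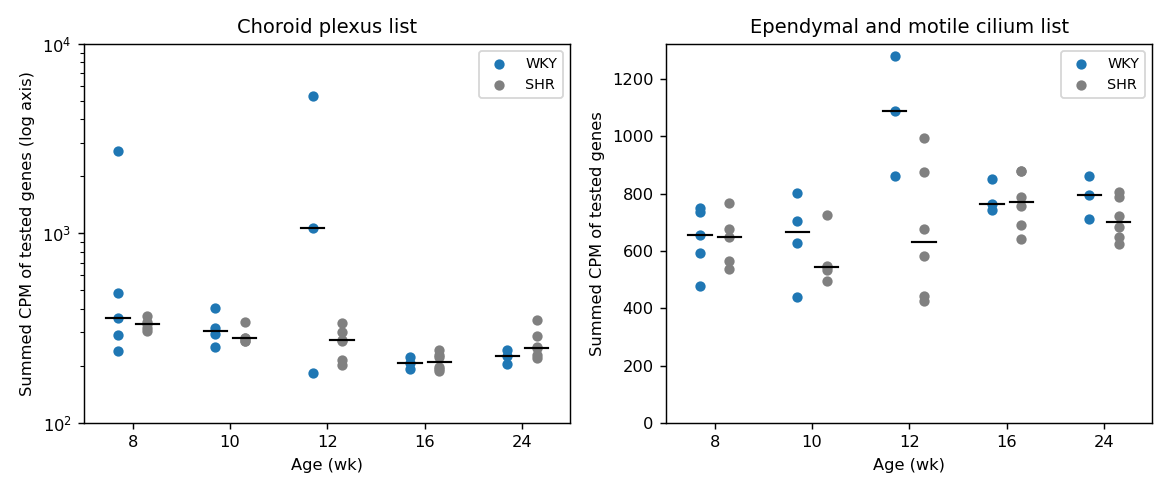
Summed CPM (y axes, the left on a log scale) of the 15 choroid plexus genes and the 57 ependymal and motile cilium genes by age (x axes), each point 1 NTS library, WKY in blue and SHR in grey, with bars at the medians. At 12 wk WKY libraries reach 5344 CPM of choroid plexus genes, and their cilium genes lie at 863 to 1281 CPM.

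Connective tissue genes of the leptomeninges, the membranes over the brain surface, also had mostly lower values. Of 13 tested genes 12 had lower values at 24 wk (median -0.65), 5 with an unadjusted p under 0.05, against 5.57% of all genes. Col3a1, a fibrillar collagen, had 5.34, 8.16 and 5.67 CPM at 12 wk and 1.10, 1.40 and 2.11 CPM at 24 wk, a log2 fold change of -2.05 ± 0.49. All libraries of 24 wk were below those of 12 wk. The log2 fold change of Col3a1 was -1.03 ± 0.43 in the CVLM and -1.66 ± 0.51 in the RVLM of the same rats. In the NTS of SHRs it was -0.51 ± 0.34. Dcn, the proteoglycan decorin, had 17.3, 26.9 and 12.4 CPM at 12 wk and 9.01, 11.9 and 11.1 CPM at 24 wk, also without overlap. The median of the list was -0.40 without 12 wk replicate 2 and -0.31 without replicates 2 and 3. It was -0.09 in the CVLM and -0.255 in the RVLM of the WKY rats, and 0.07 in the NTS of SHRs.

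Among named genes averaging at least 50 counts, the 5 of lowest p in each direction were taken for the difference between the strains. Those with a lower log2 fold change in WKY rats than in SHRs included Mxra8, Fmod, Prelp and Serping1. Those with a higher one were Oprk1, Ubn2, Kif5b, Gabrb2 and Slc38a2. Over all genes Tgif2 had the lowest p for this difference. Mxra8, a matrix remodelling-associated protein, had 31.7, 42.0 and 30.1 CPM at 12 wk and 17.3, 26.8 and 18.7 CPM at 24 wk in WKY rats, and a mean of 21.4 and 27.7 CPM in SHRs. Its log2 fold change in WKY rats was lower by -1.11 ± 0.25 (SE, edgeR quasi-likelihood test with Benjamini-Hochberg adjustment, adjusted p = 0.354). Fmod, a collagen-binding proteoglycan, differed by -2.31 ± 0.54, Prelp by -2.54 ± 0.61 and Serping1, the C1 inhibitor of complement, by -2.11 ± 0.54.

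Interferon-induced genes had mostly lower values at 24 wk in all regions of the WKY rats. In the NTS all 18 tested genes had lower values at 24 wk, with a median log2 fold change of -0.59. At an unadjusted p under 0.05 there were 3, against 5.57% of all genes. Their summed level was 563, 693 and 707 CPM at 12 wk and 388, 491 and 588 CPM at 24 wk, and replicate 3 of 24 wk lay above replicate 1 of 12 wk. Ifitm3, which restricts the entry of viruses, had 29.9, 33.9 and 23.7 CPM at 12 wk and 9.61, 19.3 and 19.2 CPM at 24 wk, a log2 fold change of -0.87 ± 0.27. Of 17 genes tested in the CVLM 16 were lower with a median of -0.74, and of 18 in the RVLM all were, with a median of -0.86. In the NTS 16 of 18 genes (88.9%) had their highest WKY mean at 12 wk. In SHRs the median was -0.04. With 12 wk replicates 2 and 3 left out, the median in the NTS of WKY rats was -0.08.

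Among 24 neuropeptide genes of the NTS the median log2 fold change was -0.18. At an unadjusted p under 0.05, 3 were lower and 2 higher, against 5.57% and 2.44% of all genes. Gcg, which encodes proglucagon and so the precursor of glucagon-like peptide 1, had 0.910, 23 and 19.6 CPM at 12 wk and 62.6, 42.0 and 113 CPM at 24 wk. The log2 fold change was 2.31 ± 0.83 (SE, n = 3 per age, edgeR quasi-likelihood test with Benjamini-Hochberg adjustment, adjusted p = 0.590). The groups did not overlap, but its means at 8, 10 and 16 wk, 87.1, 56.9 and 36.9 CPM, were also above that of 12 wk. Pomc, pro-opiomelanocortin, had 6.48, 8.16 and 7.06 CPM at 12 wk and 13.7, 10.6 and 17.4 CPM at 24 wk, a log2 fold change of 0.95 ± 0.46. Its means at 8, 10 and 16 wk ranged from 10.6 to 13 CPM, so that 12 wk was again the lowest age.

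Tac1, the substance P precursor, had 262, 165 and 170 CPM at 12 wk and 78.8, 160 and 85.1 CPM at 24 wk, a log2 fold change of -0.89 ± 0.41. Vip, vasoactive intestinal peptide, had 11.7, 0.850 and 0.597 CPM at 12 wk and at most 0.317 CPM at 24 wk, and its fold change came from 1 library. Penk, proenkephalin, the highest of these genes in counts, had 614 to 805 CPM at 12 wk and 632 to 691 CPM at 24 wk. The 10 tested genes of catecholamine neurons had a median log2 fold change of 0.08, and the groups overlapped for Th and Dbh. Th had 100, 162 and 151 CPM at 12 wk and 158, 145 and 177 CPM at 24 wk, and Dbh had a log2 fold change of 0.24 ± 0.25. Chat, choline acetyltransferase, had 68.7, 109 and 83.9 CPM at 12 wk and 131, 89.5 and 102 CPM at 24 wk. Its log2 fold change was 0.30 in the NTS and -0.85 in the CVLM, and of all genes it had the lowest p for this difference in the fit over regions (1.21 ± 0.22, edgeR quasi-likelihood test with Benjamini-Hochberg adjustment, adjusted p = 1.00).

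The remaining lists are in the plot of list medians. Of the 10 tested genes for NTS and hindbrain neuron identity, 7 had lower values (median -0.66), but Hoxb5, a homeobox gene of the caudal hindbrain and the highest of the list in counts, had 91.9, 102 and 102 CPM at 12 wk and 151, 181 and 122 CPM at 24 wk. Of 7 hemoglobin and red cell genes 6 had higher values (median 0.54), and none had an unadjusted p under 0.05. The groups did not overlap in 5 of them, against 5.37% of all genes with higher values. Immediate early genes had a median of -0.44. Their summed level was 147, 82.5 and 153 CPM at 12 wk and 69.4, 150 and 67.1 CPM at 24 wk, and the libraries split as on the first component rather than by age. The median was 0.18 for mature oligodendrocyte genes. Ermn, a myelin cytoskeleton protein, had 168, 169 and 159 CPM at 12 wk and 242, 203 and 284 CPM at 24 wk. Medians were within 0.1 of 0 for the lists of general neurons, astrocytes, glutamate transmission, channels, synaptic vesicle release and ribosomal proteins.

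**Figure D5:**
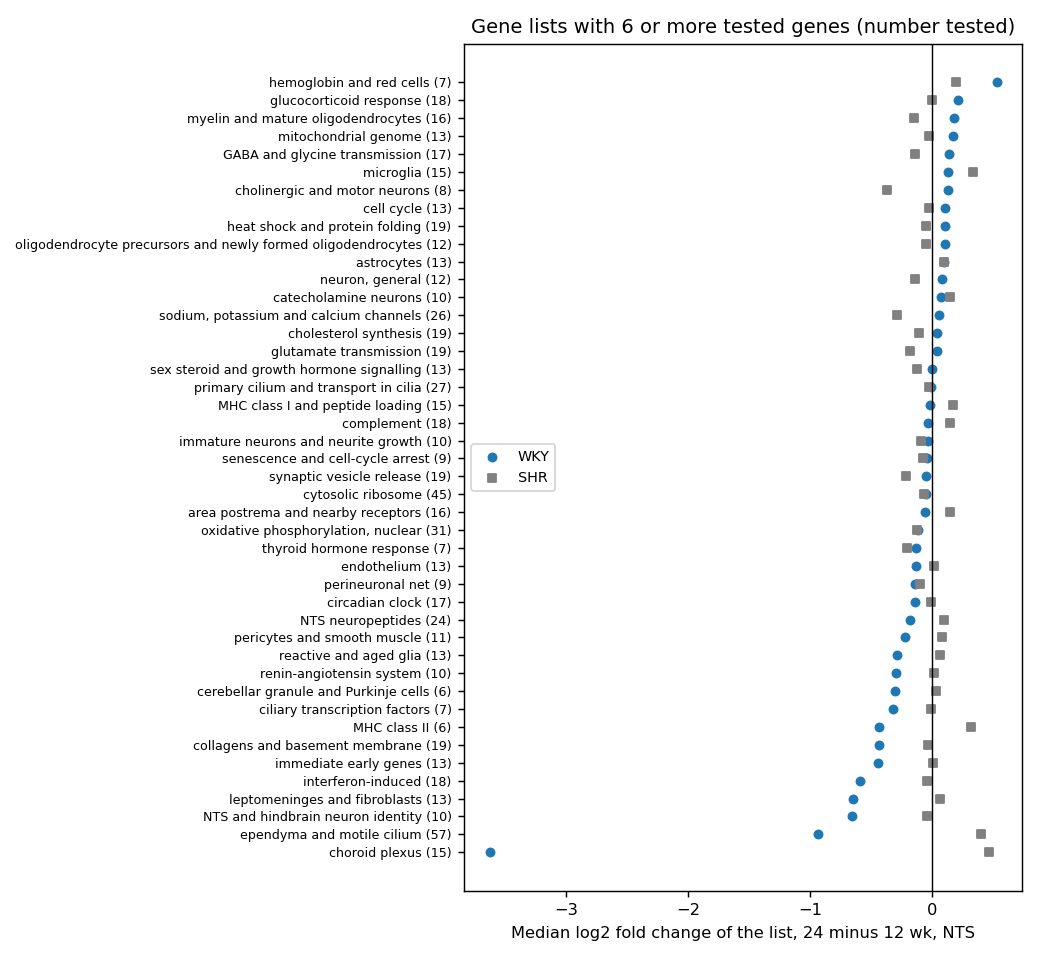
Median log2 fold change (x axis, 24 minus 12 wk) of each gene list with 6 or more tested genes in the NTS (y axis, number tested in brackets), WKY as blue circles and SHR as grey squares. Choroid plexus (-3.63) and ependyma and motile cilium (-0.93) lie farthest below 0 in WKY rats, and at 0.47 and 0.40 in SHRs.

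In the CVLM of WKY rats 6 genes passed the adjusted test (0.0447% of 13408), and 1540 (11.5%) had an unadjusted p under 0.05. In the NTS none of the 6 passed. Masp1, a protease of the lectin pathway of complement, had a log2 fold change of -0.80 in the CVLM and -0.46 ± 0.16 in the NTS, and Rgs17, a regulator of G protein signalling, had 0.89 and 0.34 ± 0.15. In the RVLM 0 genes passed (0%), and 1210 (9.02%) had an unadjusted p under 0.05, while DESeq2 called 9. In the NTS of SHRs also 0 passed (0%), with a lowest adjusted p of 0.0843, 878 genes (6.37%) at an unadjusted p under 0.05 and 5 genes called by DESeq2.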

How the data were processed

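RNA from NTS, CVLM and RVLM punches was sequenced, and the authors deposited 1 table per region with the expected counts of RSEM, not normalized. Per their methods, reads were mapped to rn6 with STAR in RSEM. Batch adjustment with ComBat_seq is also named, and whether the tables hold it is not given in the sources used here. In the NTS 5.02% of values are not whole. Each library's age and strain came from the labels. No source used here says that a group holds more than 1 library per rat and region. Repeated libraries were checked by a chi-square per gene within groups, of which the lowest was 16.1. Deviations of same-numbered libraries of both ages from their group means had correlations of -0.11, -0.50 and -0.37, so the replicate numbers were not taken as pairs.

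Expected counts were rounded and analysed in R 4.3.3 with edgeR 4.0.16, limma 3.58.1, sva 3.50.0 and DESeq2 1.42.0. Genes were kept where their largest value after DESeq2's rlog reached 3.5 in the region. The main model was edgeR (TMM, estimateDisp, robust glmQLFit, glmQLFTest) over all 46 NTS libraries in 10 groups of strain and age, so that the groups share 1 estimate of spread with 36 residual degrees of freedom. CVLM and RVLM were fitted likewise. Regions were compared in 1 fit of 18 WKY libraries from 6 rats, with the rat as a block, over 13116 genes. Adjustment for multiple tests was by Benjamini and Hochberg over all genes of a fit. Calls were made at an adjusted p under 0.05, and strictly at 0.01 or less with a fold change of at least 2. The edgeR fit of the NTS comparison in WKY rats was tested on simulated counts.

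Genes are named by a rule that takes the 10 with the lowest p in each direction among those averaging 50 counts or more, the 5 in each direction for the difference between the strains, and for each of 48 gene lists the genes with the highest counts and the lowest p. A few genes under these rules or of the tissue check are not reported here. Genes with a motif in the promoter, those of the tissue check, Dcn, Nfkbia, Jund and those of the CVLM were chosen after their values were seen. The members and the lists were chosen with earlier results of these data known. The alternatives tried were DESeq2, its size factors in edgeR, other filters on low counts, only the compared libraries, a replicate block, the number that ends each library's name as a term, and leaving out each library. Outlying libraries were looked for in 16 groups.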

Additional observations from a re-analysis of the deposited data

Results flagged for a closer look

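Across ages, 1 WKY library outside the comparison stood far from its group in choroid plexus genes. Replicate 5 of WKY rats at 8 wk had a summed level of 2730 CPM over the choroid plexus list in the NTS, against 485 CPM in the next library and a median of 356 CPM (n = 5). Its gap to the nearest library was 0.901 of the group's range. Only groups of at least 4 libraries were examined, 16 in all, and chance marks about 1 in 20. The groups of 3 WKY rats at 12 and 24 wk are too small for this check.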

How the results depend on the processing

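For the NTS of WKY rats the number of called genes was 0 under other size factors, both other filters, only the compared libraries, the trailing number as a term and the added alternatives, which were chosen after seeing the data (2 surrogate variables, and 12 wk replicates 2 and 3 left out together). DESeq2 called 10, and 2 under the strict rule. Leaving out 1 library gave 0 to 39, the 39 without 24 wk replicate 2 and 1 without 24 wk replicate 3, and 0 to 1 under the strict rule. With a replicate block the number was 0, with 1487 genes at an unadjusted p under 0.05, and no other count of called genes moved by over 1.5 times under the block. The numbers do not pair the libraries. For SHRs DESeq2 called 5, 2 surrogate variables gave 1 and leaving out 1 library 0 to 1. For the difference between the strains DESeq2 called 6 and leaving out 1 library 0. In the CVLM the 6 genes became 47 with DESeq2, 18 with the trailing number as a term, 0 with only the compared libraries and 1 to 12 without 1 library. In the RVLM DESeq2 called 9, and leaving out 1 library gave 0 to 2. For NTS minus CVLM DESeq2 called 1 and leaving out 1 rat 0 to 1, and for NTS minus RVLM 2 and 0. The causes were not tested. The log2 fold change changed sign for Ttr (2.01) and Enpp2 (0.32) with 12 wk replicates 2 and 3 left out together, and without 12 wk replicate 2 for Hydin (-0.91 to 0.0145 over single libraries left out) and Enpp2 (-0.93 to 0.19). With 3 rats per age and a median standard error of 0.245, small fold changes could not be detected. Whether the choroid plexus transcripts at 12 wk and the motile cilium genes in the same libraries are linked was not tested.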
